A study of Homo sapiens with 16 samples.

Results

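Levels of 9 cytoskeletal genes were followed across 16 RNA sequencing libraries of U2OS, a human osteosarcoma cell line. The 9 are the actins ACTB and ACTG1, the filamins FLNA and FLNC, the alpha-actinins ACTN1 and ACTN4, the myosin heavy chain MYH9, the scaffold AHNAK and the intermediate filament gene VIM. They were taken by symbol from the 28207 human genes counted, and each of the 9 was among the 4632 genes tested, which averaged 50 CPM or more. CPM are reads per 1000000 human-gene reads after TMM scaling, which puts libraries on a common scale through the genes they share. Earlier results on these libraries had named ACTB, ACTG1 and FLNA as higher in the CL arm and AHNAK as lower in CL of zdna2; what put the other 5 genes on the list is not recorded. Differences between CL and CC in the 9 genes are therefore given as a description: calls are counted beside those of all genes, and no p-value is printed for them.

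Beta-actin and gamma-actin, made from ACTB and ACTG1, polymerise into the filaments that shape most cells. Filamins and alpha-actinins crosslink those filaments into networks and bundles, nonmuscle myosin IIA pulls on them, and vimentin forms a separate filament system. Many genes of this system are targets of serum response factor (SRF), whose coactivators are held in check by free actin monomers.

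The genotype label of each library joins a number (zdna1, zdna2, zdna3 or zdna4) with an arm (CL or CC), and each of the 8 combinations has 2 replicates. What the numbers and arms stand for is not explained there, and no treatment, clone or control is named. The groups are zdna1 CL, zdna1 CC, zdna2 CL, zdna2 CC, zdna3 CL, zdna3 CC, zdna4 CL and zdna4 CC. Every library holds total RNA of the same line, and the series title names MYC, FACT and Z-DNA. Nothing in the labels says whether replicates were separate cultures, so each p-value may measure technical spread alone.

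Human-gene reads ran between 39335 and 310187 per library. In the rest of this paragraph CPM are plain reads per 1000000 human-gene reads, without TMM scaling, and 1 read stood for 3.22 to 25.4 CPM. The mean depth was 151000 reads in CL and 141100 in CC of zdna1, 152900 and 121500 in zdna2, 81220 and 49050 in zdna3, and 267700 and 40110 in zdna4, so CL was the deeper arm in each number. The zdna4 CC libraries stood apart from the rest: the 423 olfactory receptor genes, silent in most tissues, summed to 1520 ± 28.9 CPM there (mean ± SD, n = 2), against 66.4 to 311 CPM in the means of the other 7 groups. Reads on the extra reference sequence of each number also moved with the arm, between 0.326% and 61.1% of assigned reads in CL libraries and between 13.8% and 87.7% in CC libraries. The 9 listed mesenchymal markers, VIM among them, summed to 4144 to 6377 CPM per library, with FN1 at 1181 CPM or more. Over all libraries COL1A2 had 10 reads and RUNX2 55, and each stood at 0 CPM in at least 1 library. Epithelial markers summed to at most 101.7 CPM, muscle markers to at most 73.4 CPM and blood markers to at most 17.98 CPM, with HBA1, HBA2, HBB and CD3E at 0.

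Promoters are shown for ACTG1, FLNA and FLNC because SRF binds a motif called the CArG box, and these 3 genes include promoters with and without it. RefSeq promoter windows on GRCh38.p14 were found for 8 of the 9 genes, and ACTB had no entry. In the 250 bases before the transcript start, ACTG1 and FLNA each held a CArG box, and in both it began 94 bases upstream of the start. Another began 171 bases upstream in 1 of the windows of ACTN1. The windows of FLNC, VIM, AHNAK, MYH9 and ACTN4 had none. Of 35116 human promoter windows of the same length, 1.16% held a CArG box on either strand. Capitals mark the box in the sequences, where a match is a description of the letters and not a binding site.
ACTG1 (GRCh38.p14, chr17:81512800-81513049, minus strand): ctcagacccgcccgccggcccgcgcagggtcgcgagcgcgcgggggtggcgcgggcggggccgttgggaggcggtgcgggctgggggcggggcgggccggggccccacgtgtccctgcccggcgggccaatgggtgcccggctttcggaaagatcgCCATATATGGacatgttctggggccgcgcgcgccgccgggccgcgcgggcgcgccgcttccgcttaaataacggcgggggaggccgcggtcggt
FLNA (GRCh38.p14, chrX:154374635-154374884, minus strand): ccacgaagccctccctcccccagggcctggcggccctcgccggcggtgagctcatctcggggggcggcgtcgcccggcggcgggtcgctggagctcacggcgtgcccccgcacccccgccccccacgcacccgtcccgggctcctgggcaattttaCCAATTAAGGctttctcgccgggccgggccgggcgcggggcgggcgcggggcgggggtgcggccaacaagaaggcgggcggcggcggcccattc
FLNC (GRCh38.p14, chr7:128830156-128830405, plus strand): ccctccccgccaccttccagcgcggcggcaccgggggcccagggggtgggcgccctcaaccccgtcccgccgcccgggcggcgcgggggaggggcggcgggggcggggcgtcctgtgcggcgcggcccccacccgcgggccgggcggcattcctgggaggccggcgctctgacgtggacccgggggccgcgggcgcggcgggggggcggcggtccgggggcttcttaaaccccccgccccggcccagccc

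The 3 windows were rich in G and C, at 78.8% in ACTG1, 78.4% in FLNA and 85.6% in FLNC. The hexamer CACGTG, the core of the E-box that MYC and its partner MAX bind, occurred once in the 8 genes' windows, 145 bases before the start of ACTG1; 6.34% of all windows held it. The alternating run CGCGCG, a kind of sequence that can take the Z-DNA form, was found in windows of ACTG1 and ACTN4 and in 14.1% of all windows. Both hexamers read the same on either strand.

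ACTB was the most abundant of the 9 and stood at rank 2 of all genes by mean CPM. On hg19, the build of the deposited files, it lies on chromosome 7 from 5566779 to 5570232 on the minus strand, and its 1812 bases of exon collected 15794 reads. Per kilobase of exon its level was 4153 ± 485 CPM (mean ± SD over 16 libraries). ACTG1 (chromosome 17, 79476997 to 79479825, minus strand) followed at 985.7 ± 121 CPM per kb. The order ACTB above ACTG1 held in 16 of 16 libraries.

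VIM (chromosome 10, 17270240 to 17279592, plus strand) stood at 739 ± 107 CPM per kb and FLNA (chromosome X, 153576899 to 153603006, minus strand) at 468 ± 71.3 CPM per kb. ACTG1 exceeded VIM in all 16 libraries and VIM exceeded FLNA in 15 of 16. MYH9 (chromosome 22, 36677323 to 36784112, minus strand) had 319 ± 33.9 CPM per kb, below FLNA in all 16. FLNC (chromosome 7, 128470460 to 128499328, plus strand) had 230 ± 57.1 CPM per kb and ACTN1 (chromosome 14, 69340840 to 69446083, minus strand) 183 ± 50.8 CPM per kb. FLNC was above ACTN1 in 11 of the 16 libraries, so these neighbours did not differ beyond their spread.

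AHNAK (chromosome 11, 62201016 to 62314278, minus strand) averaged 2465 CPM, yet over 19391 bases of exon that is 127 ± 25.5 CPM per kb. ACTN4 (chromosome 19, 39138289 to 39222229, plus strand) was the least abundant at 98.8 ± 20.8 CPM per kb. The remaining neighbouring pairs, MYH9 with FLNC, ACTN1 with AHNAK and AHNAK with ACTN4, each kept their order in 13 of 16 libraries. Levels varied least in MYH9, whose highest library was 1.42-fold its lowest, then ACTB at 1.44-fold and ACTG1 at 1.47-fold. They varied most in ACTN1 at 2.56-fold and FLNC at 2.3-fold, and ACTN1 and ACTN4 rested on as few as 15 reads in a library.

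**Figure D1:**
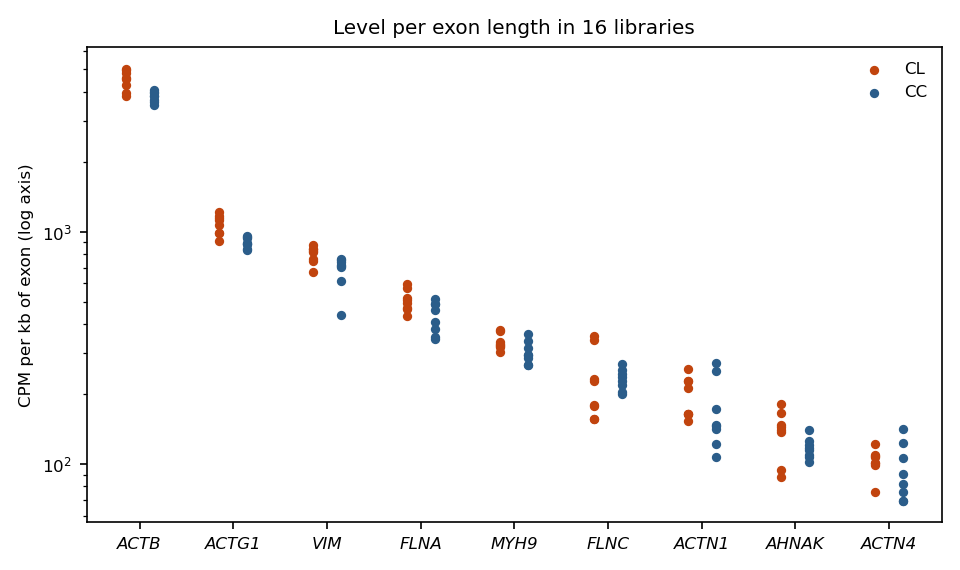
CPM per kilobase of exon on a log axis for each gene, ordered by mean; each point is 1 library, with CL on the left and CC on the right. ACTB lies above every other gene in all 16 libraries, and the points of FLNC and ACTN1 overlap.

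Counting did not use strand, so antisense genes matter: VIM shares 641 exon bases with VIM-AS1, ACTN4 1726 with CAPN12 and FLNC 136 with FLNC-AS1. Over all 16 libraries VIM-AS1 collected 6 reads, CAPN12 2 and FLNC-AS1 2. Reads on shared bases may have been counted for neither gene, so these totals do not show how many were lost. CPM per kb used the full exon lengths, 2154 bases in VIM and 5142 in ACTN4. Whether this lowered VIM and ACTN4 in the order by CPM per kb was not tested. The alpha-actin and smooth muscle genes were near absent, with 3 reads for ACTA1, 14 for ACTA2, 2 for ACTC1 and 6 for ACTG2. The actin-fusion genes POTEE and POTEF had 105 and 110 reads, which are uncertain because these copies are nearly identical to ACTB.

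Together the 9 genes held a larger share of human-gene reads in CL than in CC of every number. This share includes ACTB, ACTG1 and FLNA, which were listed for being higher in CL, so the choice of genes builds in part of the difference. The share was 2.61 ± 0.0623% in CL and 2.30 ± 0.0380% in CC of zdna1 (mean ± SD, n = 2 each), and 2.28 ± 0.0397% in CL and 2.16 ± 0.0109% in CC of zdna2. In zdna3 it was 2.49 ± 0.0207% in CL and 2.18 ± 0.00894% in CC, and in zdna4 2.59 ± 0.0484% in CL and 2.03 ± 0.0150% in CC. Libraries of the arms did not overlap in any of the 4 numbers. The deeper sequencing of CL and the olfactory receptor reads of zdna4 CC moved with this, and their part in the result was not tested.

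ACTB, the gene with the most reads of the 9, stood at 8966 and 8251 CPM in CL and 7217 and 7146 CPM in CC of zdna1, and at 6973 and 7145 CPM in CL and 6953 and 6325 CPM in CC of zdna2. In zdna3 the values were 8313 and 7713 CPM in CL, against 6687 and 7406 CPM in CC. In zdna4 they were 8693 and 9109 CPM in CL, against 6530 and 6973 CPM in CC. Both CL libraries lay above both CC libraries in each number, by the narrowest margin in zdna2. The CL over CC log2 differences for zdna1 to zdna4 were 0.26, 0.09, 0.19 and 0.40, and their average was 0.23 (SE 0.0396), a 1.18-fold difference.

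ACTG1, which makes the other cytoplasmic actin, had 2479 and 2294 CPM in CL against 1942 and 1905 CPM in CC of zdna1, and 2017 and 2181 CPM in CL against 1720 and 1795 CPM in CC of zdna2. In zdna3 CL had 2002 and 1861 CPM and CC had 1926 and 1691 CPM, the one number in which the arms overlapped. In zdna4 CL had 2324 and 2375 CPM and CC had 1808 and 1822 CPM. The log2 differences were 0.31, 0.25, 0.10 and 0.37 for zdna1 to zdna4, with an average of 0.26 (SE 0.0616). The difference in zdna3 was smaller than its SE of 0.148.

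FLNA, which joins actin filaments into loose networks and ties them to the membrane, was higher in CL of zdna1, zdna2 and zdna3. It had 4874 and 5082 CPM in CL and 3919 and 4169 CPM in CC of zdna1, and 3693 and 3950 CPM in CL and 3237 and 3461 CPM in CC of zdna2. The gap was widest in zdna3, with 4389 and 3990 CPM in CL and 2942 and 3000 CPM in CC. In zdna4 the arms overlapped, at 4340 and 4184 CPM in CL and 4372 and 4147 CPM in CC. The log2 differences were 0.30, 0.19, 0.49 and 0.00 in number order, averaging 0.25 (SE 0.0483), and 0.32 without the zdna4 libraries.

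FLNC, the filamin best known from muscle, did not follow FLNA. In zdna1 it was lower in CL, at 1627 and 1635 CPM, than in CC, at 2243 and 1996 CPM. In zdna4 it was again lower in CL, at 1424 CPM in each library, than in CC, at 2078 and 2166 CPM. In zdna2 CL was the higher arm, with 2080 and 2118 CPM against 1825 and 1864 CPM in CC. The same held in zdna3, with 3262 and 3115 CPM in CL against 2479 and 2334 CPM in CC. The arms did not overlap in any of the numbers, and opposite differences of -0.37 (SE 0.0897), 0.19 (SE 0.0910), 0.40 (SE 0.145) and -0.57 (SE 0.145) stood behind an average of -0.09 (SE 0.0605).

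**Figure D2:**
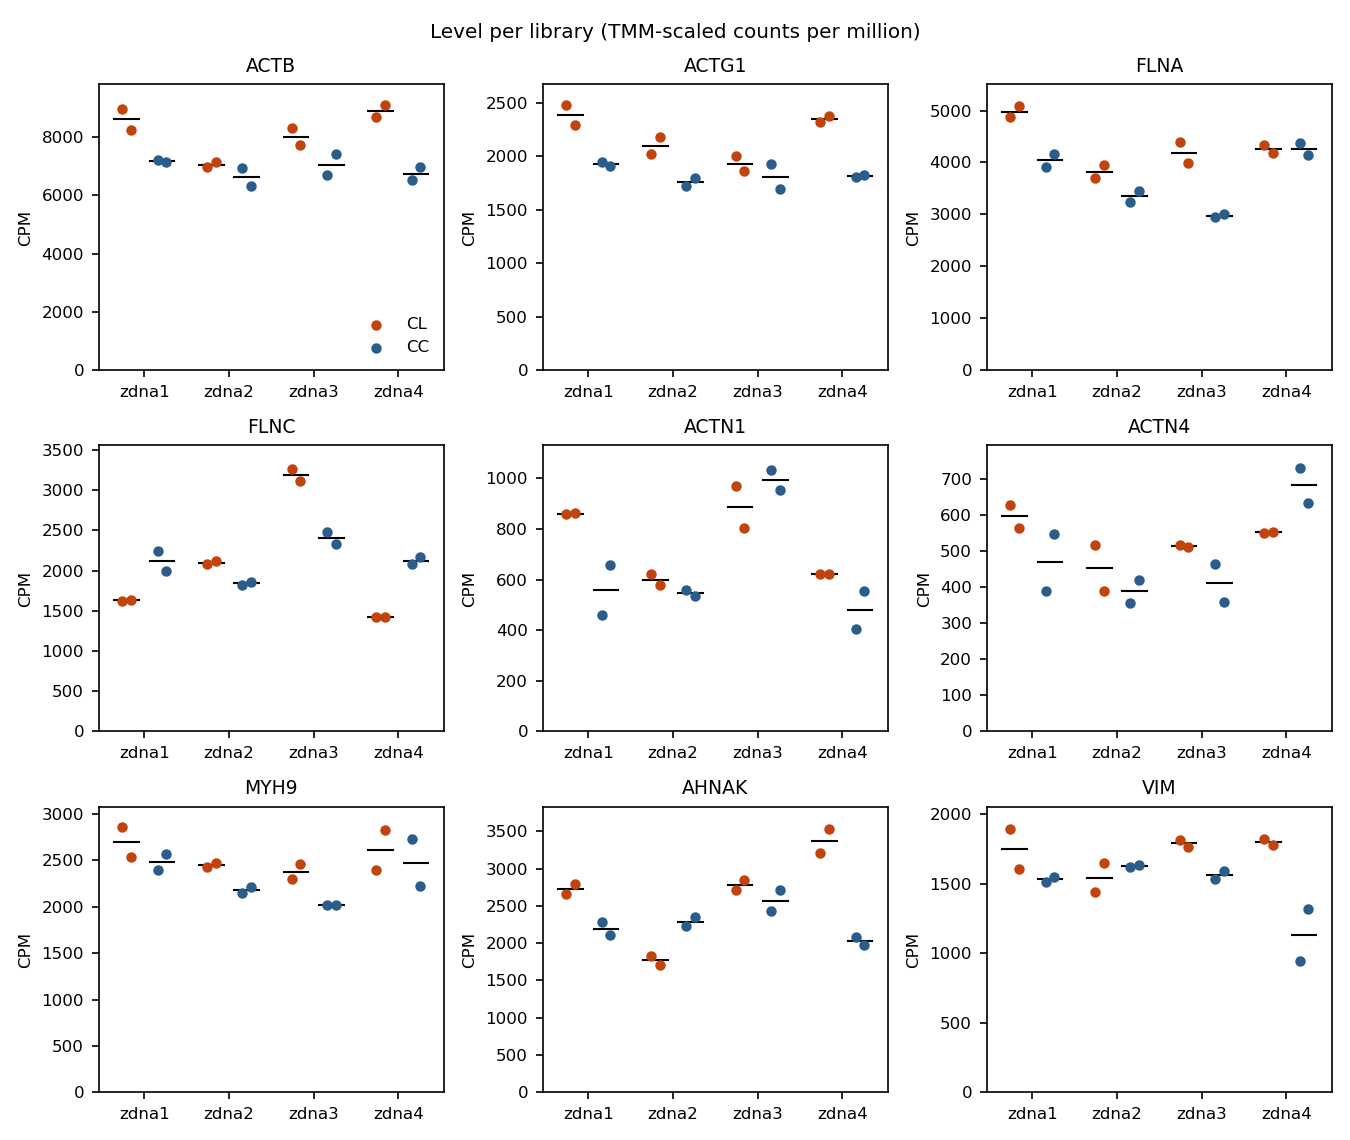
CPM of each of the 9 genes in every library, by number, with CL on the left of CC; points are the 2 libraries of a group and the black line is their mean. ACTB is higher in CL of every number, FLNC is lower in CL of zdna1 and zdna4, and AHNAK is lower in CL of zdna2.

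The alpha-actinins crosslink filaments in stress fibres and at adhesions. ACTN1 had 858.9 and 861.9 CPM in CL and 461.0 and 655.8 CPM in CC of zdna1, its widest gap between arms. It had 621.3 and 578.2 CPM in CL and 559.8 and 534.8 CPM in CC of zdna2, and 620.9 and 620.7 CPM in CL and 404.8 and 554.7 CPM in CC of zdna4. In zdna3 the arms overlapped, at 967.9 and 803.0 CPM in CL and 1034 and 952.5 CPM in CC. Its log2 differences in number order were 0.64, 0.13, -0.17 and 0.38, averaging 0.24 (SE 0.10003).

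ACTN4 had 628.5 and 564.0 CPM in CL and 390.1 and 547.5 CPM in CC of zdna1, and overlapped in zdna2 with 516.6 and 389.3 CPM in CL and 357.0 and 420.2 CPM in CC. In zdna3 it had 517.1 and 511.0 CPM in CL and 463.6 and 357.2 CPM in CC. In zdna4 it stood at 550.5 and 553.7 CPM in CL and at 728.6 and 633.9 CPM in CC, the one number in which it was lower in CL. Its differences were 0.36, 0.21, 0.33 and -0.29, with SEs of 0.170 to 0.276 that are the widest of the 9 genes.

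MYH9, the heavy chain of nonmuscle myosin IIA, had log2 differences of 0.12, 0.17, 0.23 and 0.08 in number order, with an average of 0.15 (SE 0.0616). It ran at 2863 and 2535 CPM in CL and 2394 and 2566 CPM in CC of zdna1, and at 2429 and 2473 CPM in CL and 2150 and 2215 CPM in CC of zdna2. In zdna3 it had 2294 and 2458 CPM in CL and 2015 and 2024 CPM in CC. In zdna4 it ran at 2397 and 2822 CPM in CL and 2725 and 2219 CPM in CC, a spread between replicates wider than the gap between arms.

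AHNAK, a giant scaffold at the membrane that binds actin and annexins, changed direction between the numbers. In zdna2 it was lower in CL, with 1829 and 1706 CPM, than in CC, with 2231 and 2345 CPM. In zdna4 it was higher in CL, with 3207 and 3523 CPM, than in CC, with 2078 and 1981 CPM. In zdna1 it had 2654 and 2788 CPM in CL and 2279 and 2110 CPM in CC, and in zdna3 2718 and 2847 CPM in CL and 2425 and 2715 CPM in CC. The zdna4 CL libraries were thus the highest and the zdna2 CL libraries the lowest of all 16. The log2 differences were 0.31 (SE 0.0866), -0.37 (SE 0.0878), 0.12 (SE 0.140) and 0.73 (SE 0.140), and their average was 0.20 (SE 0.0584).

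VIM, the vimentin gene of mesenchymal cells, differed most in zdna4, with 1821 and 1777 CPM in CL against 944.5 and 1321 CPM in CC. Those CC libraries were the lowest of the 16 in VIM, and they are the shallow ones with olfactory receptor reads, whose part was not tested. It had 1892 and 1603 CPM in CL and 1516 and 1551 CPM in CC of zdna1, and 1438 and 1649 CPM in CL and 1623 and 1635 CPM in CC of zdna2. In zdna3 it had 1816 and 1764 CPM in CL and 1534 and 1595 CPM in CC. The log2 differences were 0.18, -0.08, 0.19 and 0.68 in number order, the last with an SE of 0.169, and only in zdna2 did the arms overlap.

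Averaged over the 4 numbers, 3 of the 9 genes passed limma's test at an adjusted p of 0.05, ACTB, ACTG1 and FLNA, each higher in CL; 0.432% of all tested genes passed, 0.345% as higher. These are the genes that the list was built on, so nothing is read from that count. Within zdna1, 4 of 9 passed (ACTB, FLNA and ACTN1 higher in CL, FLNC lower), against 0.756% of all genes. Within zdna2, 1 of 9 passed (AHNAK, lower in CL), against 0.173%, and neither edgeR nor DESeq2 called it. Within zdna4, 4 of 9 passed (ACTB, AHNAK and VIM higher in CL, FLNC lower), against 1.17%. Within zdna3, where 0.0864% of all genes passed, limma called 0 of the 9, edgeR called 1 and DESeq2 0, and 2 were under 0.05 before adjustment. Without the zdna4 libraries 1 of 9 passed the averaged test, FLNA. With genes of at least 200 CPM alone, 5.97% of them passed within zdna1, 1.19% within zdna2, 0.434% within zdna3 and 5.97% within zdna4.

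Each call within a number was lost in at least 1 fit with a library left out. Leaving out zdna1 CC replicate 2 ended none of the zdna1 calls, and the 4 calls in zdna4 remained without array weights. A group left with 1 library is assumed to vary like the others. Of the 4 calls in zdna1, 0 remained without CC replicate 1, 1 without CL replicate 1 (FLNA), 1 without CL replicate 2 (ACTB) and 0 without array weights. The AHNAK call in zdna2 was lost without any of its 4 libraries and without array weights. Of the 4 calls in zdna4, 1 remained without CC replicate 1 (AHNAK) and 1 without CC replicate 2 (VIM), and 3 without either CL library, where FLNC was lost.

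The CL over CC difference was above 0 in all 4 numbers for 4 of 9 genes, ACTB, ACTG1, FLNA and MYH9, against 7.53% of all genes. The first 3 were listed for being higher in CL, and FLNA in zdna4 stood at 0.00 (SE 0.116). Alternative settings reached -0.03 for ACTG1 in zdna3, -0.03 for FLNA in zdna4 and -0.06 for MYH9 in zdna4. Non-overlapping libraries with CL above CC were seen for 7, 6, 7 and 5 of the 9 genes in zdna1 to zdna4, where 21.5%, 16.7%, 19.5% and 24.0% of all genes did so. The opposite was seen for 1, 1, 0 and 2 genes, against 20.3%, 18.2%, 14.4% and 20.3% of all genes. The median log2 difference of the 9, averaged over numbers, was 0.23, against 0.05 over all genes. The first value is that of ACTB, listed for being higher in CL, so nothing is read from this average. Abundant genes were also measured more tightly: SEs of that average were 0.0396 to 0.115 in the 9 genes, and the median over all genes was 0.245.

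**Figure D3:**
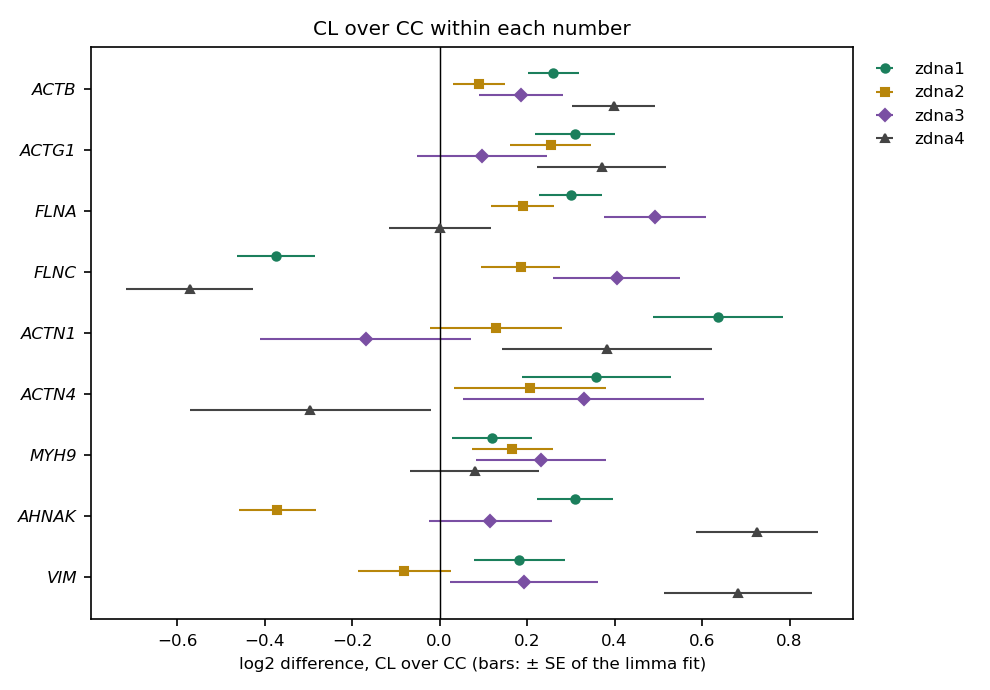
Log2 difference CL over CC of each gene within each number, on the TMM scale; colours stand for the 4 numbers and bars for 1 SE of the limma fit. ACTB lies on the positive side in every number, ACTG1 in zdna3 by less than its SE, while FLNC lies between -0.57 and 0.40 and AHNAK between -0.37 and 0.73; on the deposited scale the median gene itself is shifted by 0.15, 0.03, 0.70 and 0.43 in zdna1 to zdna4.

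Whether the 4 CL over CC differences of a gene were equal was tested apart from their average. The test called 2 of the 9 genes, FLNC and AHNAK, where 0.864% of all tested genes passed. With genes of at least 200 CPM alone it called 3 of the 9, VIM being the third, where 6.62% passed. For FLNC the adjusted p was 0.00035 by limma, and 0.00524 without the zdna4 libraries; whether FLNC was chosen on its pattern is not known. AHNAK was listed for its difference in zdna2, which enters the test, so no p is given for it. For the other 7 genes the adjusted p lay between 0.168 for VIM and 0.969 for MYH9 by limma, and that of VIM was 0.0408 with genes of at least 200 CPM.

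Differences among the numbers, averaged over the arms, do not use the contrast that picked ACTB, ACTG1 and FLNA. AHNAK was listed for being lower in CL of zdna2, and those libraries enter its zdna2 average. Its p-values between numbers are therefore a description and no separate support. Whether such differences played a part in picking the other 5 genes is not known. Of the 9 genes 5 differed among zdna1 to zdna4: FLNC (limma, adjusted p = 2.41e-06), FLNA (3.62e-06), AHNAK (9.65e-05), ACTN1 (0.00103) and ACTB (0.00335). Among all tested genes 8.85% passed. With the test run on genes of at least 200 CPM alone, 34.5% passed and 6 of these 9 did, so a high share is common at these levels. ACTB missed the threshold without zdna2 CC replicate 2 (adjusted p = 0.0892). ACTN4 (0.0586), MYH9 (0.124), ACTG1 (0.203) and VIM (0.393) did not pass by limma. ACTN4 passed without zdna1 CC replicate 1 (adjusted p = 0.0243) or zdna2 CL replicate 1 (0.0280), and MYH9 without zdna4 CL replicate 1 (0.0396). The 6 pairs of numbers were then compared, and the 4 libraries of a number enter each of its pairs. SDs over those 4 libraries include the difference between arms.

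FLNC was highest in zdna3, where its 4 libraries ran between 2334 and 3262 CPM around a mean of 2797 ± 459 CPM (SD, n = 4). Means were 1875 ± 300 CPM in zdna1, 1972 ± 149 CPM in zdna2 and 1773 ± 404 CPM in zdna4, and no library of these reached the lowest of zdna3. Log2 differences were -0.57 (SE 0.0854, adjusted p = 2.78e-06 by limma) for zdna1 over zdna3 and -0.49 (SE 0.0857, adjusted p = 5.64e-05) for zdna2 over zdna3. For zdna3 over zdna4 the difference was 0.67 (SE 0.103, adjusted p = 6.02e-06 by limma). The remaining 3 pairs differed by -0.08 to 0.18, and none of them passed.

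ACTN1 was also highest in zdna3. Its means were 709.4 ± 192 CPM in zdna1, 573.5 ± 36.5 CPM in zdna2, 939.4 ± 97.6 CPM in zdna3 and 550.3 ± 102 CPM in zdna4 (SD, n = 4 each). The zdna3 libraries, at 803.0 to 1034 CPM, lay above all of zdna2 and zdna4 and overlapped zdna1. Differences were -0.70 (SE 0.142, adjusted p = 0.000684 by limma) for zdna2 over zdna3 and 0.78 (SE 0.170, adjusted p = 0.00233) for zdna3 over zdna4. The last was 0.65 (adjusted p = 0.0770 by limma) without zdna4 CC replicate 1, and its adjusted p was 0.123 with no filter on low values. The zdna1 over zdna3 difference of -0.44 did not pass (limma, adjusted p = 0.0590), but did without zdna1 CC replicate 2 (-0.55, adjusted p = 0.0158).

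FLNA had another order than FLNC, with zdna2 and zdna3 as its lowest numbers. Its means were 4511 ± 556 CPM in zdna1, 3585 ± 306 CPM in zdna2, 3580 ± 722 CPM in zdna3 and 4261 ± 112 CPM in zdna4 (SD, n = 4 each). It was higher in zdna1 than in zdna2 by 0.33 (SE 0.0510, adjusted p = 1.26e-05 by limma) and than in zdna3 by 0.35 (SE 0.0682, adjusted p = 0.000429), although libraries of both pairs overlapped. For zdna2 over zdna4 the difference was -0.25 (SE 0.0684, adjusted p = 0.0275 by limma), without overlap of the libraries. For zdna3 over zdna4 it was -0.27 (SE 0.0820, adjusted p = 0.0396 by limma), with overlap. That gap lay in CC, with 2971 CPM in zdna3 and 4259 CPM in the shallow zdna4 libraries. In CL the means were 4190 CPM in zdna3 and 4262 CPM in zdna4.

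Both of those last calls of FLNA were lost in several fits. With a library left out that ended the call, the differences lay between -0.23 and -0.28 for zdna2 over zdna4 and between -0.24 and -0.32 for zdna3 over zdna4. The zdna2 over zdna4 call was lost without zdna2 CC replicate 1 (limma, adjusted p = 0.118), zdna2 CL replicate 1 (0.0954), zdna4 CC replicate 1 (0.226) or zdna4 CC replicate 2 (0.105). The zdna3 over zdna4 call was lost without zdna3 CC replicate 1 (limma, adjusted p = 0.107), zdna3 CC replicate 2 (0.0914), zdna3 CL replicate 2 (0.133), zdna4 CC replicate 1 (0.153) or zdna4 CC replicate 2 (0.0783). For the same 2 pairs limma gave adjusted p-values of 0.0647 and 0.0786 with log2(CPM + 1) and of 0.144 and 0.153 with no filter on low values. Scaled by library totals the differences were -0.14 (limma, adjusted p = 0.231) and -0.25 (0.0555).

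Averaged over the arms, AHNAK was lowest in zdna2, but in CC alone it was not. In CL it had 1767 CPM in zdna2, against 2721 CPM in zdna1, 2782 CPM in zdna3 and 3365 CPM in zdna4. In CC zdna2 stood at 2288 CPM, above zdna1 at 2194 CPM and zdna4 at 2029 CPM and below zdna3 at 2570 CPM. AHNAK was listed for its low CL in zdna2, so the p-values given here are a description. Its means were 2458 ± 317 CPM in zdna1, 2028 ± 308 CPM in zdna2, 2676 ± 178 CPM in zdna3 and 2697 ± 783 CPM in zdna4 (SD, n = 4 each). It was higher in zdna1 than in zdna2 by 0.28 (SE 0.0617, adjusted p = 0.00389 by limma, and 0.103 without array weights). Differences were -0.41 (SE 0.0827, adjusted p = 0.000678 by limma) for zdna2 over zdna3 and -0.38 (SE 0.0826, adjusted p = 0.00562) for zdna2 over zdna4, the last with an adjusted p of 0.0814 without zdna4 CC replicate 1 and 0.0767 with no filter on low values. The libraries of zdna2 lay below all of zdna3 and overlapped those of zdna1 and zdna4, where the arms of AHNAK stood far apart.

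ACTB differed in 1 pair, higher in zdna1 at 7895 ± 875 CPM than in zdna2 at 6849 ± 360 CPM (SD, n = 4 each). Libraries of zdna1 and zdna2 all but met, at 7146 CPM in the lowest of zdna1 and 7145 CPM in the highest of zdna2. The log2 difference was 0.20 (SE 0.0418, adjusted p = 0.00187 by limma). Without zdna2 CC replicate 2 it was 0.17 (limma, adjusted p = 0.0583), and the call was also lost without array weights (0.108) and with no filter on low values (0.0613). For zdna2 over zdna4 ACTB differed by -0.18 (limma, adjusted p = 0.0704), which passed without zdna1 CL replicate 1 (0.0363), zdna1 CL replicate 2 (0.0340) or zdna4 CL replicate 1 (0.0294). It also passed by DESeq2 (adjusted p = 0.0205), and by limma with DESeq2's size factors (0.0262) or genes of at least 200 CPM (0.0408).

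ACTN4 averaged 420.7 ± 68.9 CPM in zdna2 and 616.7 ± 84.0 CPM, its highest mean, in zdna4 (SD, n = 4 each). The zdna2 over zdna4 difference of -0.54 did not pass (limma, adjusted p = 0.0535), though the libraries did not overlap. It passed without zdna1 CC replicate 1 (limma, adjusted p = 0.0469), zdna1 CC replicate 2 (0.0468) or zdna2 CL replicate 1 (0.0300). It also passed by edgeR (adjusted p = 0.0144) and DESeq2 (0.0352), and by limma with log2(CPM + 30) (0.0344), DESeq2's size factors (0.0463) or genes of at least 200 CPM (0.00948).

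ACTG1, MYH9 and VIM passed in none of the 6 pairs by limma. Their largest pair differences were 0.20 (95% interval 0.02 to 0.37) in ACTG1 and 0.24 (0.06 to 0.41) in MYH9, both for zdna1 over zdna3. That of MYH9 passed when scaled by library totals (limma, adjusted p = 0.0452) or with genes of at least 200 CPM (0.0462). In VIM it was 0.24 (95% interval -0.00 to 0.48) for zdna3 over zdna4. These intervals include differences of the size called in FLNA.

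In all, 13 of the 54 gene by pair differences passed. By pair, 3 of 9 genes passed for zdna1 over zdna2 (2.5% of all genes), 2 for zdna1 over zdna3 (4.49%), 3 for zdna2 over zdna3 (6.0%), 2 for zdna2 over zdna4 (2.48%) and 3 for zdna3 over zdna4 (4.75%). With genes of at least 200 CPM alone, 12.1%, 17.2%, 20.1%, 15.5% and 19.3% passed in these pairs, in the same order. A high share is thus common at these levels. For zdna1 over zdna4, where 0.691% of all genes passed, limma, edgeR and DESeq2 called 0 of the 9, and 2 were under 0.05 before adjustment. The deposited scale shifts all genes between numbers: its median gene stood at 1.46 for zdna1 over zdna3, 1.34 for zdna2 over zdna3 and -1.36 for zdna3 over zdna4, and between -0.02 and 0.10 in the other pairs. On that scale FLNC, ACTN1, AHNAK and VIM turned direction in all 3 pairs with zdna3, ACTB and ACTN4 for zdna2 over zdna3, and FLNC for zdna1 over zdna2. Measured against the median gene of that scale, all 25 differences called in the 9 genes, between arms, between numbers or on average, kept their sign. Of all 99 differences, called or not, 90 did. The deposited scale holds the same reads times 1 constant per library, so taking off its median gene largely returns the TMM scale. The kept signs are therefore no separate check.

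**Figure D4:**
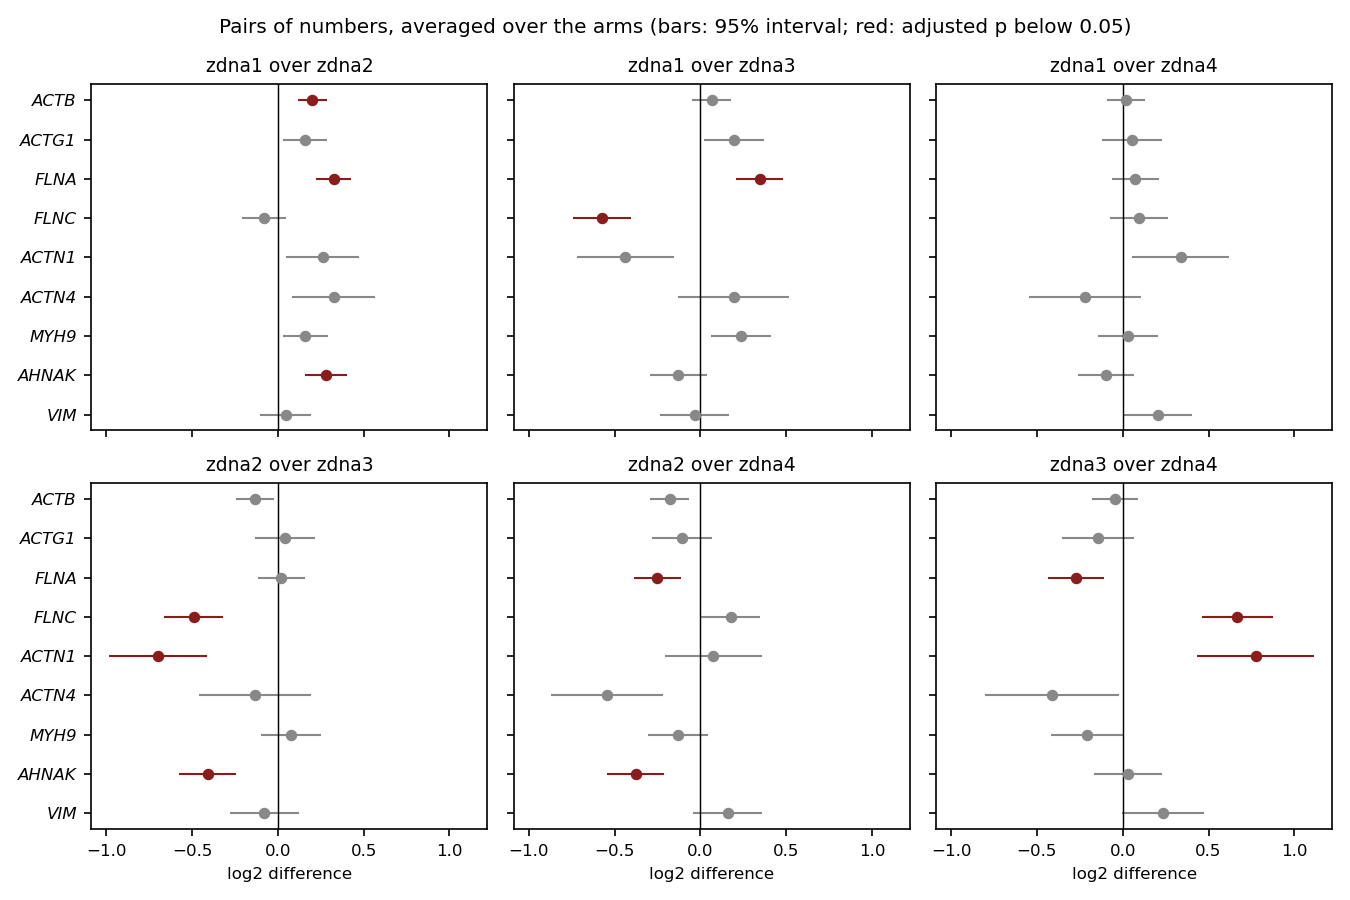
Log2 difference of each gene for the 6 pairs of numbers, averaged over the arms on the TMM scale, with 95% intervals; red marks an adjusted p below 0.05. FLNC and ACTN1 stand out as higher in zdna3 than in zdna2 and zdna4; on the deposited scale, where the median gene moves by 1.34 or more in pairs with zdna3, FLNC and ACTN1 turn direction there.

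Ratios within a library do not depend on how libraries are scaled. Reads of ACTB over ACTG1 gave a ratio of 3.76 ± 0.296 (SD over 16 libraries, range 3.28 to 4.38). FLNA over FLNC varied far more, between 1.19 and 3.11. It was 3.05 ± 0.0798 in CL and 1.92 ± 0.242 in CC of zdna1 (SD, n = 2 each), and 2.99 ± 0.0777 in CL and 2.01 ± 0.134 in CC of zdna4. In zdna2 it was 1.82 ± 0.0634 in CL and 1.81 ± 0.0588 in CC, and in zdna3, where it was lowest, 1.31 ± 0.0455 in CL and 1.24 ± 0.0698 in CC.

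Over the 4 libraries of a number, FLNA over FLNC averaged 2.48 ± 0.671 in zdna1, 1.82 ± 0.05004 in zdna2, 1.27 ± 0.0655 in zdna3 and 2.50 ± 0.575 in zdna4 (SD). The libraries of zdna3 lay below those of each other number. ACTN4 over ACTN1 averaged 0.767 ± 0.0909 in zdna1, 0.732 ± 0.0915 in zdna2, 0.498 ± 0.113 in zdna3 and 1.18 ± 0.430 in zdna4, with zdna3 below the rest and zdna4 above it. A two-sided exact permutation test of 4 against 4 libraries can give no p below 0.0286. The test shuffled the 2 CL and 2 CC libraries of a number without regard to arm. Its spread, like the SDs above, therefore includes the difference between arms. Of 18 comparisons of ratios 9 reached that value, all in FLNA over FLNC or ACTN4 over ACTN1. Adjusted over the 18, the smallest p of this exact permutation test was 0.0572, so none passed.

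**Figure D5:**
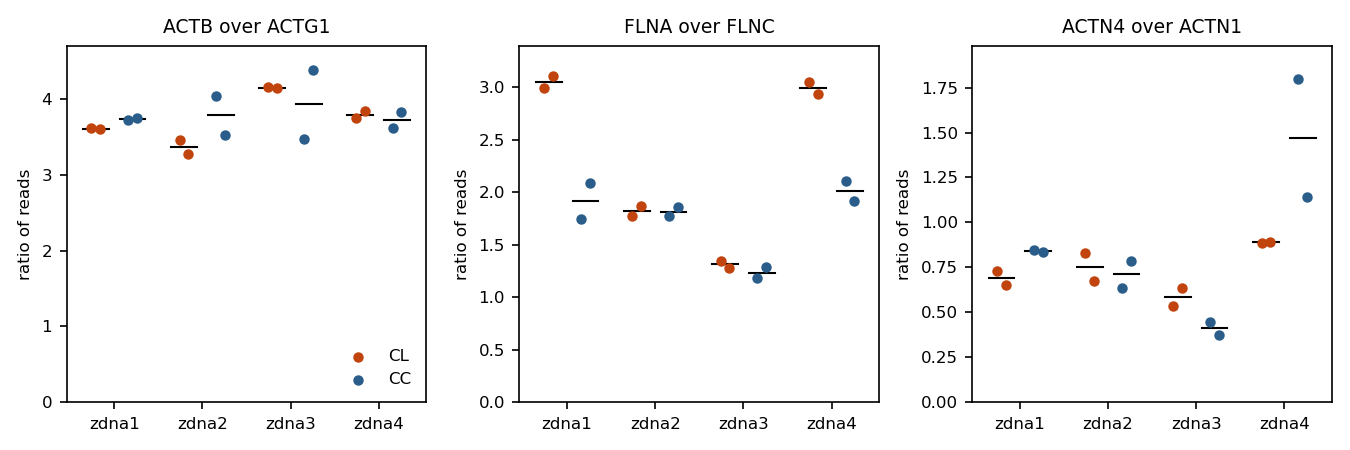
Ratio of reads within each library for the 3 paralog pairs, by number, with CL on the left of CC; points are libraries and lines group means. ACTB over ACTG1 stays between 3.28 and 4.38, FLNA over FLNC is 3.05 and 2.99 on average in CL of zdna1 and zdna4, and ACTN4 over ACTN1 is highest in CC of zdna4.

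The rest of the actin system was read from 8 lists written from textbook knowledge, of which 96 genes were tested. Between the arms on average, limma, edgeR and DESeq2 called 0 of these 96 genes, where 0.432% of all genes passed by limma, and 12 were under 0.05 in limma before adjustment. In simulated data limma's averaged test missed most changes of 1.5-fold, so the 0 does not show that these genes were unchanged. Within numbers 3 passed, each higher in CL: LASP1, an adhesion adaptor, in zdna1, where 0.756% of all genes passed, and the monomer-binding thymosin TMSB4X and the bundling protein PALLD in zdna4, where 1.17% did. List medians of the average CL over CC difference were 0.07 for monomer and filament end binding, 0.06 for the Arp2/3 complex, 0.11 for myosin and tropomyosin, 0.07 for focal adhesion and 0.00 for other crosslinkers and scaffolds, beside 0.05 for all genes. The 5 tested genes of other intermediate filaments and lamins had a median of 0.35. SRF and its coactivators (3 tested) had 0.06, and POTEF, the single gene tested of the other actins, 0.02.

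Between the numbers 16 of the 96 listed genes differed by limma, 19 by edgeR and 11 by DESeq2, where 8.85%, 10.6% and 4.81% of all tested genes did by the same tools. The counts of single lists are to be read against that 8.85%. Of 21 other crosslinkers and scaffolds 5 did, beginning with PLEC, the linker plectin (limma, adjusted p = 5.72e-06), and the spectraplakin DST (9.45e-05). PLEC had 3197 ± 267 CPM in zdna1, 2824 ± 113 CPM in zdna2, 4047 ± 446 CPM in zdna3 and 3027 ± 108 CPM in zdna4 (SD, n = 4 each), and so was highest in zdna3. DST was lowest there, with 1277 ± 51.6 CPM in zdna1, 1187 ± 13.9 CPM in zdna2, 845.4 ± 43.0 CPM in zdna3 and 1412 ± 161 CPM in zdna4. The shift of the median gene on the deposited scale in pairs with zdna3 is larger than each of these differences.

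AHNAK2, the relative of AHNAK (limma, adjusted p = 0.000211), was lowest in zdna2 at 361.2 ± 96.9 CPM and highest in zdna4 at 654.8 ± 173 CPM (SD, n = 4 each). The bundling protein FSCN1 (limma, adjusted p = 0.00777), named after its values were seen, also differed.

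Of 23 focal adhesion genes 3 differed among the numbers: the integrin ITGB5, LASP1 and CSRP1. ITGB5 stood at 166.9 ± 20.2 CPM in zdna1, 132.8 ± 31.4 CPM in zdna2, 315.8 ± 97.9 CPM in zdna3 and 117.5 ± 62.7 CPM in zdna4 (SD, n = 4 each). Of 13 genes of monomer and filament end binding 3 differed, the capping subunit CAPZA1, TMSB10 and TMSB4X. CAPZA1 was highest in zdna2 at 403.4 ± 48.5 CPM, and TMSB10 in zdna3 at 1010.0 ± 109 CPM. Of 17 myosin and tropomyosin genes CNN2 and the light chain MYL12B differed, and of 13 Arp2/3 genes ACTR2. Of the 5 other intermediate filament and lamin genes the keratins KRT18 and KRT8 did. The 3 genes of SRF and its coactivators were called by none of limma, edgeR and DESeq2 (0 of 3), and 1 was under 0.05 in limma before adjustment.

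Of the 96 genes, 2 had unequal CL over CC differences across numbers, where 0.864% of all tested genes passed: PALLD (limma, adjusted p = 0.00606) and TMSB4X (0.0149). PALLD had mean levels of 387.2 CPM in CL and 563.0 CPM in CC of zdna2, and of 834.9 CPM in CL and 427.7 CPM in CC of zdna4. TMSB4X had 195.3 CPM in CL and 262.8 CPM in CC of zdna2, and 403.5 CPM in CL and 120.3 CPM in CC of zdna4. The zdna4 CC libraries are again the shallow ones with olfactory receptor reads, whose part was not tested.

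Over the 8 group means the 9 genes did not vary as a block. Pearson's r was highest for FLNA with MYH9 (0.95) and stood at 0.866 for ACTB with ACTG1 and at -0.593 for ACTG1 with FLNC. Among the 913 other tested genes of at least 200 CPM, those most like ACTB were ARHGAP29 (0.927), GPC1 (0.921), IQGAP3 (0.914), SPARC (0.898) and HSPA5 (0.893). Those most like FLNA were SARAF (0.903), TTYH3 (0.868), IRAK1 (0.866), SMARCC1 (0.86) and PRRC2A (0.857). With 8 points that share libraries and depth, and the highest of 913 values picked, these are descriptions.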

How the data were processed

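RNA of U2OS cells was extracted with Trizol and made into libraries with an Abclonal kit, per the labels' protocols. Trim Galore 0.6.6, STAR, bedtools 2.29.2 and the genomes hg19 and dm6 are named in the submitters' processing notes. Exon fragments were counted per gene with featureCounts 2.0.1 without a strand option, per the file headers. The deposited values are a signal, whole reads multiplied by 1 constant per library; how the constant was obtained is not given in the sources used here. Whole reads were recovered by dividing by that constant, and 99.99% of the values or more came within 0.1 of a whole number.

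Levels were tested with limma 3.58.1 in R 4.3.3 on log2(CPM + 10), with TMM factors from edgeR 4.0.16 over 4632 genes of at least 50 CPM on average. A single fit of 8 group means held all 16 libraries, with array weights per group, a mean-variance trend and Benjamini-Hochberg adjustment at 0.05 over all genes, two-sided. Array weights were lowest in zdna4 CC (0.303) and highest in zdna4 CL (2.66). Log2 differences are on the log2(CPM + 10) scale, which understates changes of low genes. Alternatives were edgeR's quasi-likelihood test and DESeq2 1.42.0 on the recovered reads, other pseudocounts, filters and scalings, and libraries left out. The fit was tested on simulated data with changes in CL of every number. The averaged test recovered 16 of 67 genes changed 1.5-fold, 42 of 67 changed 2-fold and 63 of 66 changed 4-fold. It made 5 false calls among the 4632 genes, so most 1.5-fold changes were missed.

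Replicates of a group differed in the share of reads on the extra reference sequence in all 8 groups and were kept as 2 libraries; over genes they differed little beyond counting noise (chi-square per degree of freedom 0.981 to 1.1). The 9 genes and the gene lists were chosen with earlier results of these data known. Of each list, up to 4 called genes with the smallest p are named, and for likeness the 5 genes with the highest r. A listed gene that enters the counts is not reported here. Intervals cover the spread between libraries only. Promoters are those of RefSeq (GRCh38.p14), and no coordinates were converted between builds.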

Additional observations from a re-analysis of the deposited data

Results flagged for a closer look

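The CL over CC difference of FLNC was not the same in the 4 numbers (limma, adjusted p = 0.00035). It was -0.37, 0.19, 0.40 and -0.57 on the log2 scale in zdna1 to zdna4, and the 2 CL libraries lay on 1 side of the 2 CC libraries in each number. Over 28 alternative settings the adjusted p lay between 1.2e-07 and 0.0187.

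For AHNAK both CL libraries lay below both CC libraries in zdna2 and above them in zdna4, with log2 differences of -0.37 and 0.73. The gene was listed for its difference in zdna2, so that these differ was not tested.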

How the results depend on the processing

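Of the 9 genes, 3 passed for CL over CC averaged over the numbers; with no filter on low values 0 did (5 of the 9 at a filter of 200 CPM, 9 on the deposited scale, 1 without zdna4), and 2 to 3 with a library left out. Of 36 values within numbers 9 passed, against 5 with log2(CPM + 1), 3 with no filter, 18 on the deposited scale, 5 with DESeq2, 5 without array weights, 5 with only the 4 libraries of a number and 4 to 9 with a library left out (4 without zdna1 CC replicate 1, 5 without either zdna4 CC library). Unequal differences were called for 2 genes, 3 at a filter of 200 CPM, 6 on the deposited scale and 2 in every fit with a library left out. Differences among numbers were called for 5 genes, 3 with no filter, 9 on the deposited scale and 4 to 6 with a library left out. Of 54 pair values 13 passed, 8 with no filter, 32 on the deposited scale and 9 to 15 with a library left out. Ratios had 0 of 18 calls. Shares of all genes moved with the setting. On the deposited scale 22.0% of all genes passed for the averaged CL over CC, 7.34% for unequal differences and 94.8% among numbers. There 95.6% passed for zdna1 over zdna3, 92.2% for zdna2 over zdna3 and 82.9% for zdna3 over zdna4. Counts of the 9 genes among numbers and in these pairs thus say little about them. At a filter of 200 CPM 2.93% passed for the averaged CL over CC.

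Replicate numbers did not pair libraries: deviation correlations over 28 pairs of libraries lay between -0.0673 and 0.0567. With a replicate block the counts were 3, 8, 2, 5 and 12 in the same order, and FLNA for zdna3 over zdna4 lost its call (adjusted p = 0.0512, limma).

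On the deposited scale these pair differences reversed: for zdna1 over zdna2 FLNC (0.0314); for zdna1 over zdna3 FLNC (1.08), AHNAK (1.52), ACTN1 (1.19) and VIM (1.61); for zdna2 over zdna3 ACTB (1.41), FLNC (1.04), AHNAK (1.13), ACTN1 (0.818), ACTN4 (1.35) and VIM (1.45); and for zdna3 over zdna4 FLNC (-0.937), AHNAK (-1.57), ACTN1 (-0.812) and VIM (-1.36). With library totals VIM reversed for zdna1 over zdna2 (-0.00294), zdna1 over zdna3 (0.00123) and zdna2 over zdna3 (0.00418), and ACTG1 for zdna2 over zdna4 (0.00359). With a library left out, uncalled differences near 0 changed sign: VIM for zdna1 over zdna2 (-0.0108 to 0.105) and zdna1 over zdna3 (-0.0774 to 0.0382), ACTB (-0.0144 to 0.0422) and MYH9 (-0.0538 to 0.103) for zdna1 over zdna4, FLNA for zdna2 over zdna3 (-0.0144 to 0.0541), ACTN1 for zdna2 over zdna4 (-0.0384 to 0.176) and AHNAK for zdna3 over zdna4 (-0.0205 to 0.0731). Fewer or more genes entering the adjustment accompany the filters; for the other settings the cause was not tested. Depth limits ACTN1 and ACTN4 most, with as few as 15 reads in a library.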
